A study of Mus musculus with 25 samples.

Results

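Destabilization of the medial meniscus (DMM) is a surgical model of knee osteoarthritis, in which a ligament that anchors the medial meniscus is cut and the joint degenerates over the following weeks. The comparison described here is between lumbar dorsal root ganglia (L3-L5) taken 16 weeks after DMM and ganglia taken 8 weeks after DMM. Its members are the 3 arrays labelled DMM at 16 weeks and the 3 labelled DMM at 8 weeks, 6 of the 25 arrays of the series. All mice were male C57BL/6 and were operated on the right knee when 10 weeks old, so the 16-week mice were 26 weeks old and the 8-week mice 18 weeks old. Untreated (naive) mice of 26 and 18 weeks, 3 arrays each, give the same step in age without surgery. The series also holds sham-operated mice and a 4-week time point, whose arrays entered the estimate of spread. The number of animals behind an array and the side of the ganglia are not labelled, so p-values measure the spread between these samples. Sham mice at 8 weeks are represented by 1 array, because the others did not meet the submitters' quality control. A comparison of 16 with 8 weeks therefore has naive mice, not sham mice, beside it here, and age and time after surgery cannot be told apart within the DMM arrays.

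Sensory neurons that carry touch, position and pain from the limb to the spinal cord have their cell bodies in the dorsal root ganglia. Each neuron body is wrapped by satellite glia, its axon is wrapped by Schwann cells, and the ganglion is enclosed in a sheath of fibroblasts that is continuous with the meninges. Macrophages reside between the neurons, and injury of a peripheral axon switches on a well known set of regeneration genes in the neuron itself. A whole ganglion is a mixture, so fewer cells of a type and less RNA per cell cannot be told apart in any value below.

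Values are deposited intensities on a log2 scale, where a difference of 1 is a doubling. Of 30142 genes with a named probe set, 20260 were tested with limma, those whose mean over all arrays exceeded 4.52. The array medians of the negative control probes ran from 5.06 to 5.35, so a tested gene can still lie at control level. A 95% interval for 3 against 3 arrays reached 0.203 to each side at the typical spread. The tissue label was matched by its markers. The neurofilament gene Nefh read 16.21 to 16.60, the nociceptor sodium channel gene Scn10a 16.18 to 16.58 and the satellite glia gene Fabp7 17.44 to 17.74 over the 6 arrays. Gfap, an astrocyte marker of the spinal cord, read below every control median in all 6. Of 12 spinal cord genes on the array 4 were bright enough to test. Together these had means of 5.50 to 5.65 in the 6 arrays, above the control medians.

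No gene passed the test between DMM at 16 and DMM at 8 weeks after adjustment over all genes tested. The count was 0 of 20260 (0% in each direction), and the lowest limma adjusted p was 0.223. At an unadjusted p under 0.05, 1317 genes were higher at 16 weeks (6.5%) and 993 were lower (4.9%), 2310 in all (11.4%). The share of these 2310 that were higher was 57.01%. It depends on the scaling, since it was 36.31% of 1906 genes after quantile normalization and 45.31% of 2006 genes after cyclic loess. The groups did not overlap for 1480 genes higher at 16 weeks (7.31%) and 1286 lower (6.35%). Over all genes the median difference was 0.0064, with 10532 genes (52%) higher at 16 weeks and 9728 (48%) lower. The naive mice gave a similar count at the unadjusted level, with 954 genes higher at 16 weeks (4.71%) and 1448 lower (7.15%).

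What the DMM arrays did show was that several groups of genes stood apart in single arrays. Fibroblast and meningeal sheath genes were all higher at 16 weeks, nerve injury genes were nearly all lower, and interferon-stimulated genes were nearly all higher, and without the array that held the highest value of most members these medians came to between -0.10 and 0.16. Groups did not overlap, with the higher values at 16 weeks, for 4 of 21 macrophage, 2 of 13 ribosomal protein and 5 of 28 oxidative phosphorylation genes. The share over all genes tested was 7.31% in that direction.

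**Figure D1:**
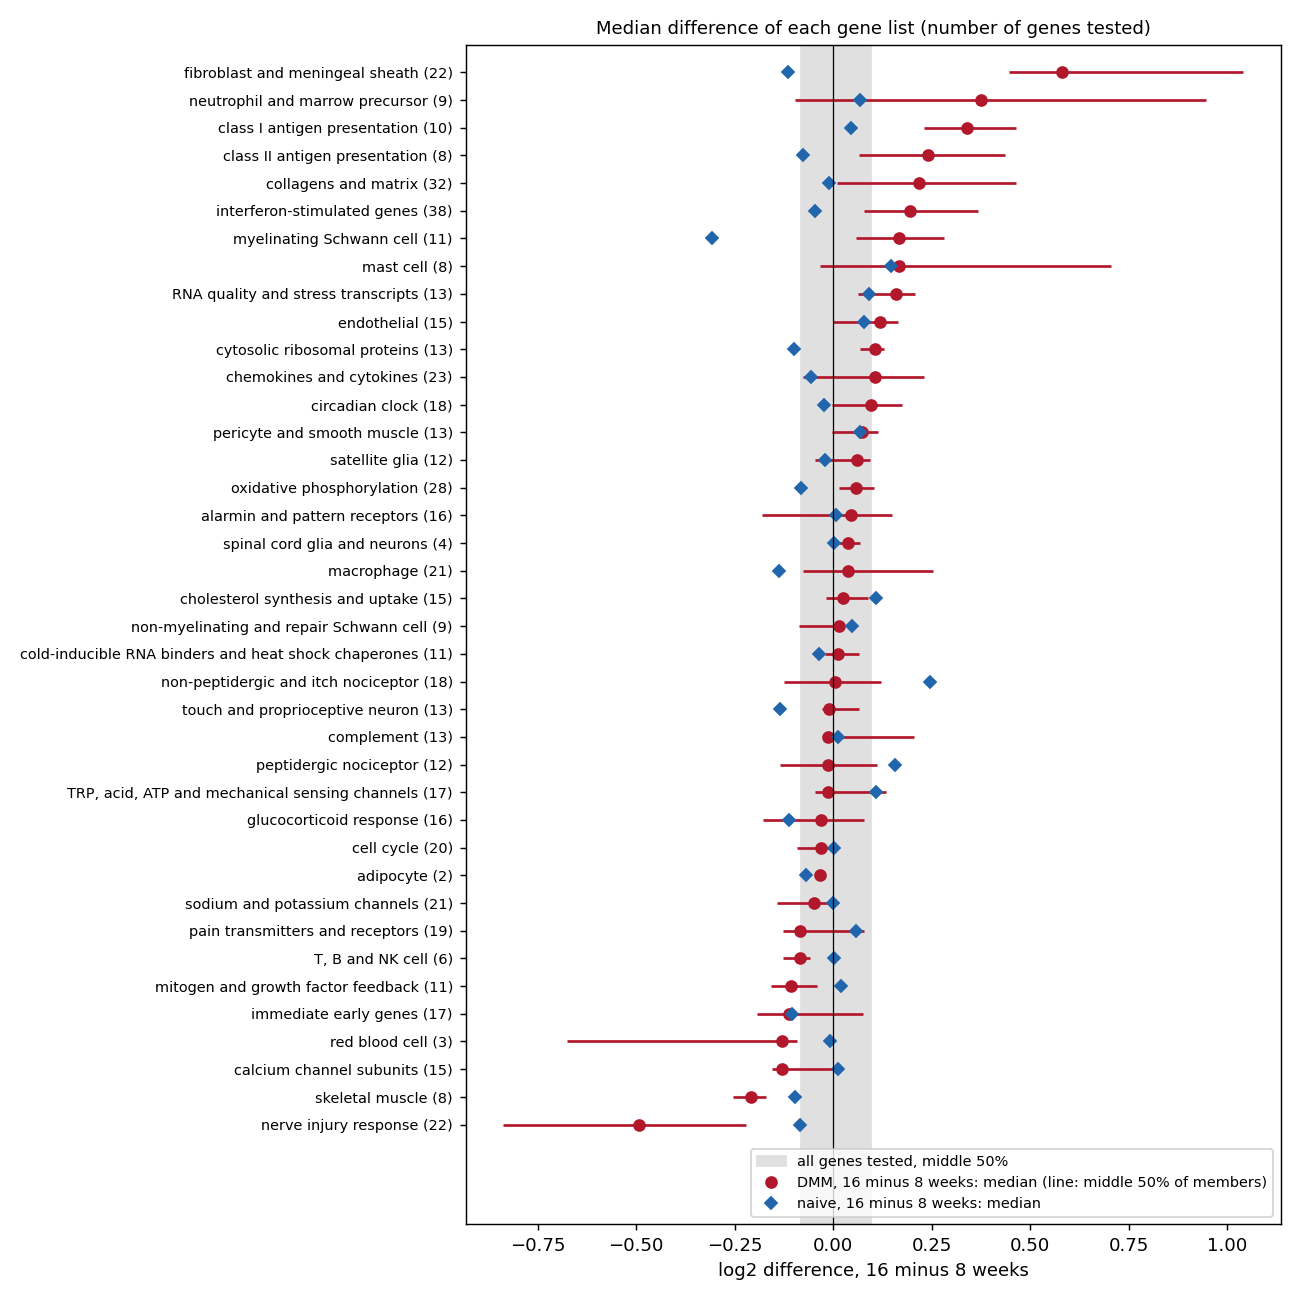
Each row is a gene list, with the number of genes tested. Red points give the median log2 difference of its members in DMM mice, 16 minus 8 weeks, with a line over the middle 50% of members. Blue diamonds give the median in naive mice, and the grey band the middle 50% of all genes tested. The sheath list lies highest at 0.58 and the nerve injury list lowest at -0.49.

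The sheath genes had the highest median of the 39 lists. All 22 tested members were higher at 16 weeks, with a median difference of 0.58 beside 0.0064 for all genes, and none had an adjusted p under 0.05, an unadjusted p under 0.05 or groups that did not overlap. The list mean was 8.995, 9.74 and 7.25 in the 3 DMM arrays at 16 weeks, against 8.40, 7.08 and 8.40 at 8 weeks. The third array at 16 weeks thus lay below 2 of the 3 arrays at 8 weeks, and the second at 8 weeks was the lowest of all. Of the 22 members, 21 had their highest value in replicate 2 at 16 weeks and 18 their lowest in replicate 2 at 8 weeks, where the shares over all genes were 21.7% and 20.9%. The median was 0.16 without replicate 2 at 16 weeks and 0.13 without replicate 2 at 8 weeks. It was 1.01 without replicate 3 at 16 weeks.

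Single members show the same arrays. Slc6a13, a transporter of GABA and taurine in the meninges, read 9.67, 10.42 and 7.33 at 16 weeks, against 8.46, 7.12 and 8.46 at 8 weeks (difference 1.13 ± 0.56 SE, limma adjusted p = 0.446). Slc13a4, a sulfate transporter of the same layer, read 9.76, 11.18 and 7.24 at 16 weeks, against 8.66, 6.75 and 8.55 at 8 weeks. Slc22a6, an organic anion transporter, read 6.26, 7.12 and 4.86 at 16 weeks, against 5.61, 5.05 and 5.35 at 8 weeks. In each of the 3 genes the groups overlapped, with replicate 3 at 16 weeks near the lowest value at 8 weeks. Ptgds, the prostaglandin D synthase that meningeal cells secrete, spanned the widest range of the list, with 15.14, 15.64 and 9.58 at 16 weeks, against 13.94, 9.30 and 13.51 at 8 weeks. Igfbp2, a binding protein for insulin-like growth factors, differed by 0.49 ± 0.24 (adjusted p = 0.443).

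Many matrix genes had their highest value in the same array. Of 32 tested collagens and matrix genes, 25 were higher at 16 weeks, with a median of 0.22 that was -0.0004 without replicate 2 at 16 weeks. Mmp14, a membrane-bound collagenase, read 9.93, 10.37 and 9.29 at 16 weeks, against 9.37, 9.27 and 9.57 at 8 weeks (difference 0.46 ± 0.18, adjusted p = 0.368). Prg4, the lubricant lubricin, and Fn1, fibronectin, were picked after their values were seen because of their size. Prg4 read 12.74, 14.28 and 7.07 at 16 weeks, against 10.60, 5.94 and 9.93 at 8 weeks, and Fn1 read 12.79, 14.04 and 9.26, against 11.31, 8.72 and 11.14. Mast cell genes were split, with 4 of 8 higher and 4 lower (median 0.17). Their proteases were the 4 higher ones, and among these Cpa3, named with its values in view, read 10.31, 10.67 and 7.78 at 16 weeks, against 8.98, 7.55 and 9.02 at 8 weeks. In naive mice the sheath list had a median of -0.11, with list means of 7.49 to 8.17 at 16 weeks and 7.35 to 8.31 at 8 weeks. Endothelial genes, 11 of 15 higher (median 0.12), and pericyte genes, 9 of 13 higher (median 0.072), had smaller medians. Without replicate 2 at 16 weeks both turned, to -0.0081 with 7 of 15 higher and to -0.065 with 4 of 13 higher. The part of sheath tissue in these differences was not tested.

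Replicate 3 at 16 weeks, the lowest of its group for the sheath list, decides how many genes pass. Without it 200 genes passed, 188 higher (0.928%) and 12 lower (0.0592%), where the full comparison had 0. Among those 200 were 5 of the 22 sheath genes, namely Slc22a6, Slc6a13, Crabp2, Igfbp2 and Slc13a4, and 5 of the 32 matrix genes, among them Mmp14, Thbs1 and Fn1. Ppy, Mir466o and Csn1s2a were among the 12 lower. Without each of the other 5 DMM arrays in turn, 0 genes passed.

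**Figure D2:**
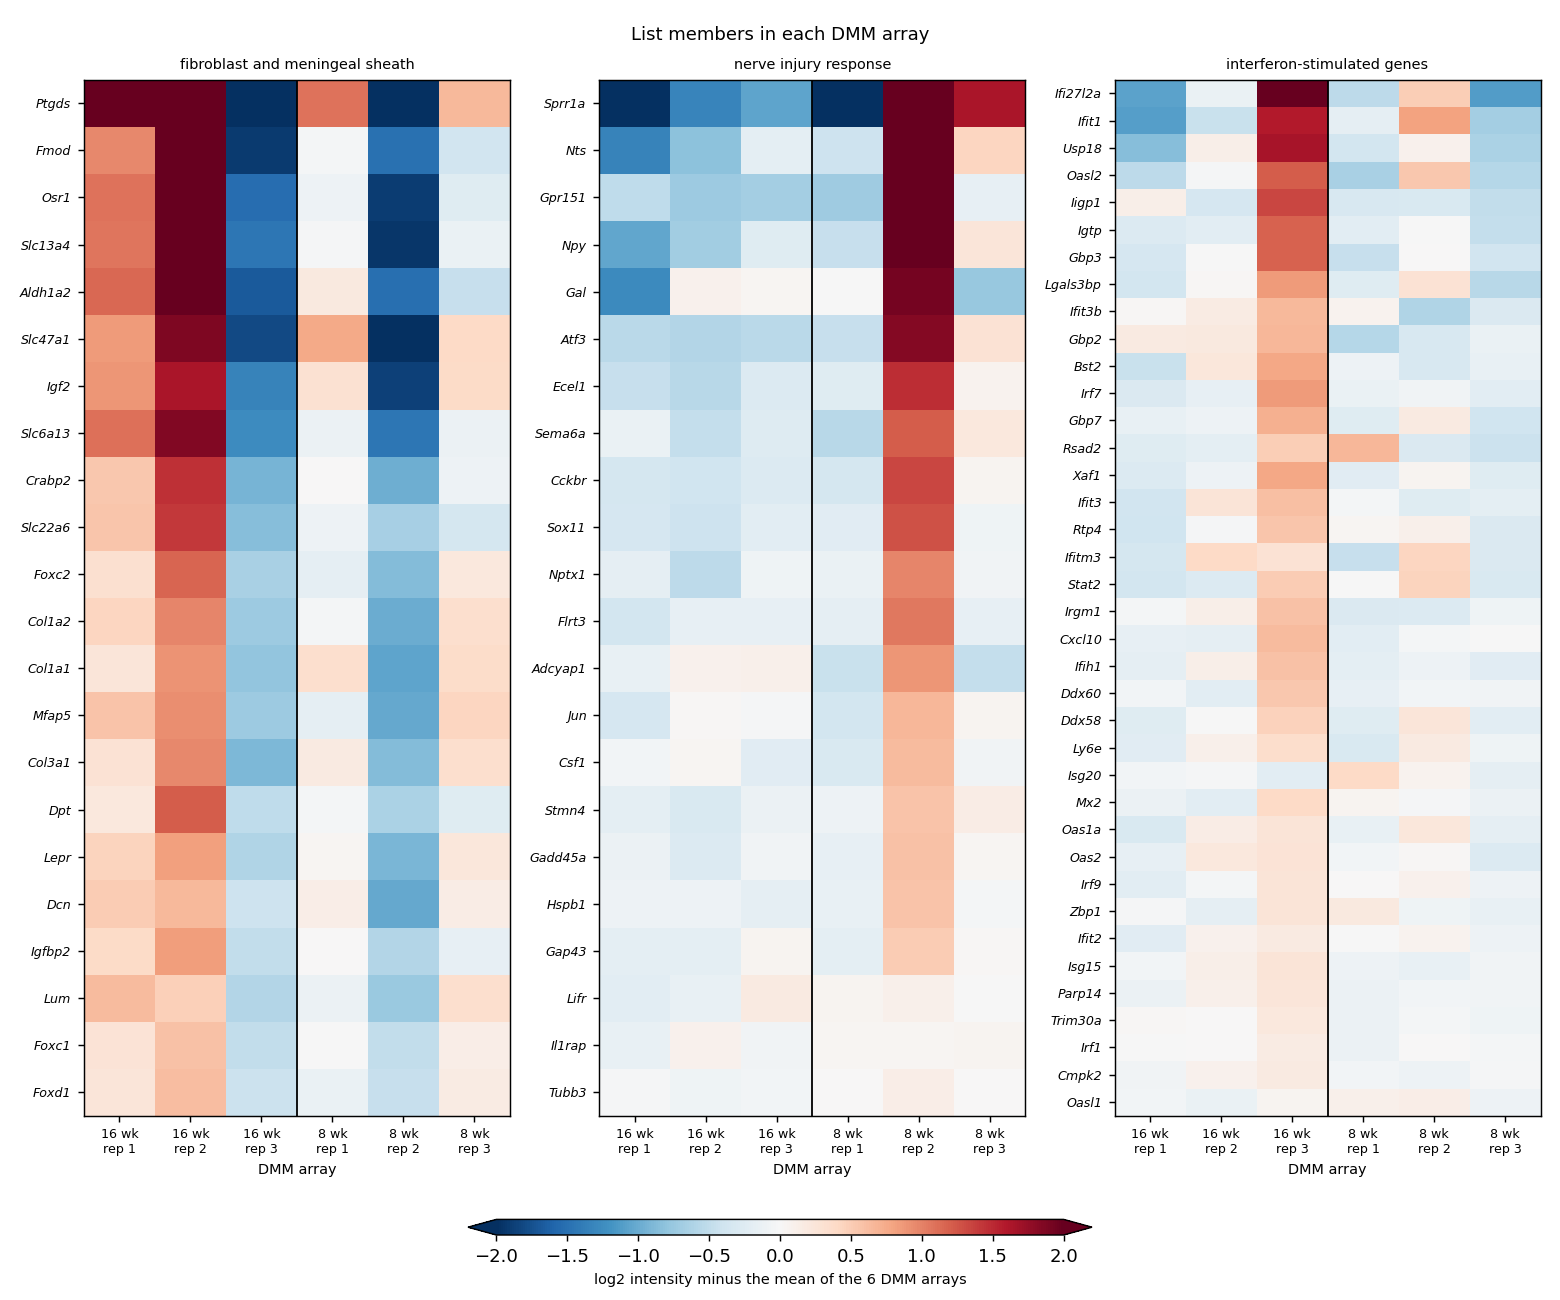
Each row is a gene of 1 of 3 lists and each column 1 of the 6 DMM arrays, 16 weeks left of 8 weeks. Colour gives the log2 intensity minus the gene's mean over the 6 arrays, with values beyond 2 in the end colours. Sheath genes are high in replicate 2 at 16 weeks, nerve injury genes in replicate 2 at 8 weeks and interferon-stimulated genes in replicate 3 at 16 weeks.

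Genes of the response to axon injury lay at the opposite end. Of 22 tested members 21 were lower at 16 weeks, with a median of -0.49. Of the 22, 6 were lower with an unadjusted limma p under 0.05, beside 4.9% of all genes tested. None passed after adjustment. The list mean was 8.35, 8.49 and 8.63 at 16 weeks, against 8.47, 10.12 and 8.89 at 8 weeks. Replicate 2 at 8 weeks was thus far the highest, and replicate 3 at 8 weeks also lay above all 3 arrays at 16 weeks. Replicate 2 at 8 weeks held the highest value of the 6 arrays for 20 of the 22 genes, where 20.7% of all genes did. Without that array the median was -0.10, with 18 of 22 still lower. Among naive mice, 1 array at 8 weeks also stood high, as the list mean was 8.39, 8.47 and 8.51 at 16 weeks, against 8.39, 8.44 and 9.13 at 8 weeks.

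Atf3, the transcription factor used as a marker of injured sensory neurons, read 6.76, 6.72 and 6.76 at 16 weeks, against 6.83, 9.14 and 7.59 at 8 weeks. The groups did not overlap, and the difference was -1.11 ± 0.48 (adjusted p = 0.403). Over the alternative settings it ran from -1.62 to -0.465. Sprr1a, a small proline-rich protein of regenerating axons, had the largest negative difference of all genes tested, at -3.13 ± 1.54 (adjusted p = 0.446). It read 5.90, 6.89 and 7.15 at 16 weeks, against 5.82, 13.67 and 9.85 at 8 weeks, so its lowest and highest values were both at 8 weeks. Stmn4, which binds tubulin, read 6.40, 6.29 and 6.48 at 16 weeks, against 6.50, 7.16 and 6.75 at 8 weeks (difference -0.41 ± 0.16, adjusted p = 0.371). Ecel1, a peptidase induced by axon damage, differed by -0.86 ± 0.35 (adjusted p = 0.377), also without overlap.

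Neuropeptides that rise after axon damage showed the same array. Nts, neurotensin, read 9.35, 9.87 and 10.50 at 16 weeks, against 10.28, 13.03 and 11.13 at 8 weeks. Its difference ran from -2.17 to -0.79 over the alternative settings. Gal, galanin, read 8.19, 9.55 and 9.50 at 16 weeks, against 9.46, 11.38 and 8.71 at 8 weeks, and its difference of -0.77 was 0.0004 without replicate 2 at 8 weeks. Cacna2d1, the calcium channel subunit that gabapentin binds, read 12.38, 12.29 and 12.45 at 16 weeks, against 12.50, 13.15 and 12.62 at 8 weeks (difference -0.39 ± 0.15, adjusted p = 0.372). The same array was high for genes outside the list that were picked after their values were seen. Ppbp, a platelet chemokine, read 10.09 in it and 5.04 to 6.71 in the other 5 arrays, and the immunoglobulin segment Igkv6-14 read 8.39 in it and 3.92 to 4.43 in the others. Skeletal muscle genes, a tissue outside the ganglion, were lower at 16 weeks in 7 of 8 cases (median -0.21). For 7 of the 8 that array held the highest value, and without it the median was -0.070.

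Interferon-stimulated genes, which cells switch on in response to interferon, were mostly higher at 16 weeks, 35 of 38, and their median was 0.20. Adjusted p was above 0.05 for all of them, and 4 of 38 had an unadjusted p under 0.05 in the higher direction (6.5% of all genes). The list mean was 7.19, 7.43 and 8.07 at 16 weeks, against 7.30, 7.48 and 7.17 at 8 weeks. Replicate 3 at 16 weeks held the highest value for 34 of the 38 genes, where 16.1% of all genes had theirs. Without it 17 of 38 were higher and the median was -0.024. In naive mice the list had a median of -0.047, and its list means ran from 7.14 to 7.18 at 16 weeks and from 7.12 to 7.30 at 8 weeks.

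The promoter is where interferon signalling reaches these genes, through the interferon-stimulated response element. Its letters, searched as GAAA, any 2 bases and GAAA on either strand with overlapping matches counted, occur in 20 of 36 RefSeq promoter windows of 29 matched list genes (55.6%), against 1131 of 32851 windows of the same length over all genes (3.44%). For the class I antigen presentation genes the count was 1 of 10 windows (10.0%). The windows run from 250 bases before to 50 after each start site in GRCm38.p6. Stretches around the matches are shown for Irgm1 and Ifit3b, among the 4 of smallest p in the list, and for Bst2, named by the rule in any case. The class I light chain gene B2m, among the 4 of smallest p in the class I list, is also shown. Only genes with a match before the start site could be shown, and promoters on 1 chromosome were left out whatever their matches. These genes therefore do not stand for their lists, and a gene not shown need not lack a match. Capitals mark the matched letters, and each line runs 5′ to 3′ on the gene's strand.
Irgm1, chr11:48871421-48871490, minus strand: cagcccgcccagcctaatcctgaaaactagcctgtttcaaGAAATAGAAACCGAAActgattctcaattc
Ifit3b, chr19:34607729-34607852, plus strand: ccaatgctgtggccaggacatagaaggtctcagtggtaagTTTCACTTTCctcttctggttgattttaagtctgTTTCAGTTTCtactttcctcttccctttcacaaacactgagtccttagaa
Bst2, chr8:71537547-71537642, minus strand: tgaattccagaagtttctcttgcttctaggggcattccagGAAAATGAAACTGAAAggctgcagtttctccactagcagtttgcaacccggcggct
B2m, chr2:122147508-122147597, plus strand: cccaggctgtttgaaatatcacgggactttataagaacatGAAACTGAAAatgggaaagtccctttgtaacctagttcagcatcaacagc
In Irgm1 and Bst2 a pair of matches overlaps in 1 run, and in Ifit3b the element lies on the other strand, where it reads as its reverse complement. A match says only that these letters are present. The list was written as genes that interferon switches on, so its higher share says nothing about the DMM arrays.

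Irgm1, an immunity-related GTPase, read 6.65, 6.81 and 7.27 at 16 weeks, against 6.40, 6.41 and 6.61 at 8 weeks. Its groups did not overlap, with a difference of 0.43 ± 0.19 (adjusted p = 0.413). Ifit3b, an antiviral protein of the IFIT family, read 6.62, 6.75 and 7.24 at 16 weeks, against 6.66, 5.99 and 6.31 at 8 weeks. Bst2, which tethers virus particles to the cell surface, read 7.56, 8.22 and 8.78 at 16 weeks, against 7.90, 7.68 and 7.86 at 8 weeks (difference 0.37 ± 0.28, adjusted p = 0.603). Usp18, which restrains interferon signalling, was most extreme in the third array, with 5.71, 6.67 and 8.21 at 16 weeks, against 6.18, 6.65 and 5.92 at 8 weeks. Ifih1, a sensor of viral RNA, differed by 0.35 ± 0.14 (adjusted p = 0.381), and Iigp1, another immunity-related GTPase, by 0.75 ± 0.34 (adjusted p = 0.424).

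Class I antigen presentation genes ran with the interferon list. All 10 were higher at 16 weeks, with a median of 0.34, and all 10 had their highest value in replicate 3 at 16 weeks. Without that array 5 were higher and 5 lower, with a median of 0.0072. H2-K1, a class I heavy chain, read 8.94, 9.31 and 10.69 at 16 weeks, against 8.85, 9.49 and 8.79 at 8 weeks (difference 0.60 ± 0.28, adjusted p = 0.432). B2m, the chain that all class I molecules share, read 16.73, 17.02 and 17.95 at 16 weeks, against 16.60, 17.16 and 16.56 at 8 weeks. Tapbp, which loads peptides onto class I molecules, had the smallest p of the list, at 0.22 ± 0.08 (adjusted p = 0.356).

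Class II genes, which professional antigen-presenting cells use, kept a positive median without that array. All 8 were higher at 16 weeks, with a median of 0.24, and 6 of 8 were higher with a median of 0.19 without replicate 3 at 16 weeks. Without replicate 2 at 8 weeks the median was 0.15. H2-Ab1, a class II beta chain, read 10.66, 10.47 and 11.12 at 16 weeks, against 9.95, 10.01 and 10.45 at 8 weeks, with no overlap (difference 0.62 ± 0.22, adjusted p = 0.344). H2-Aa, its alpha chain, read 6.56, 6.44 and 6.78 at 16 weeks, against 5.99, 6.09 and 6.39 at 8 weeks, again with no overlap. In naive mice H2-Ab1 and H2-Aa differed by -0.063 and -0.17.

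**Figure D3:**
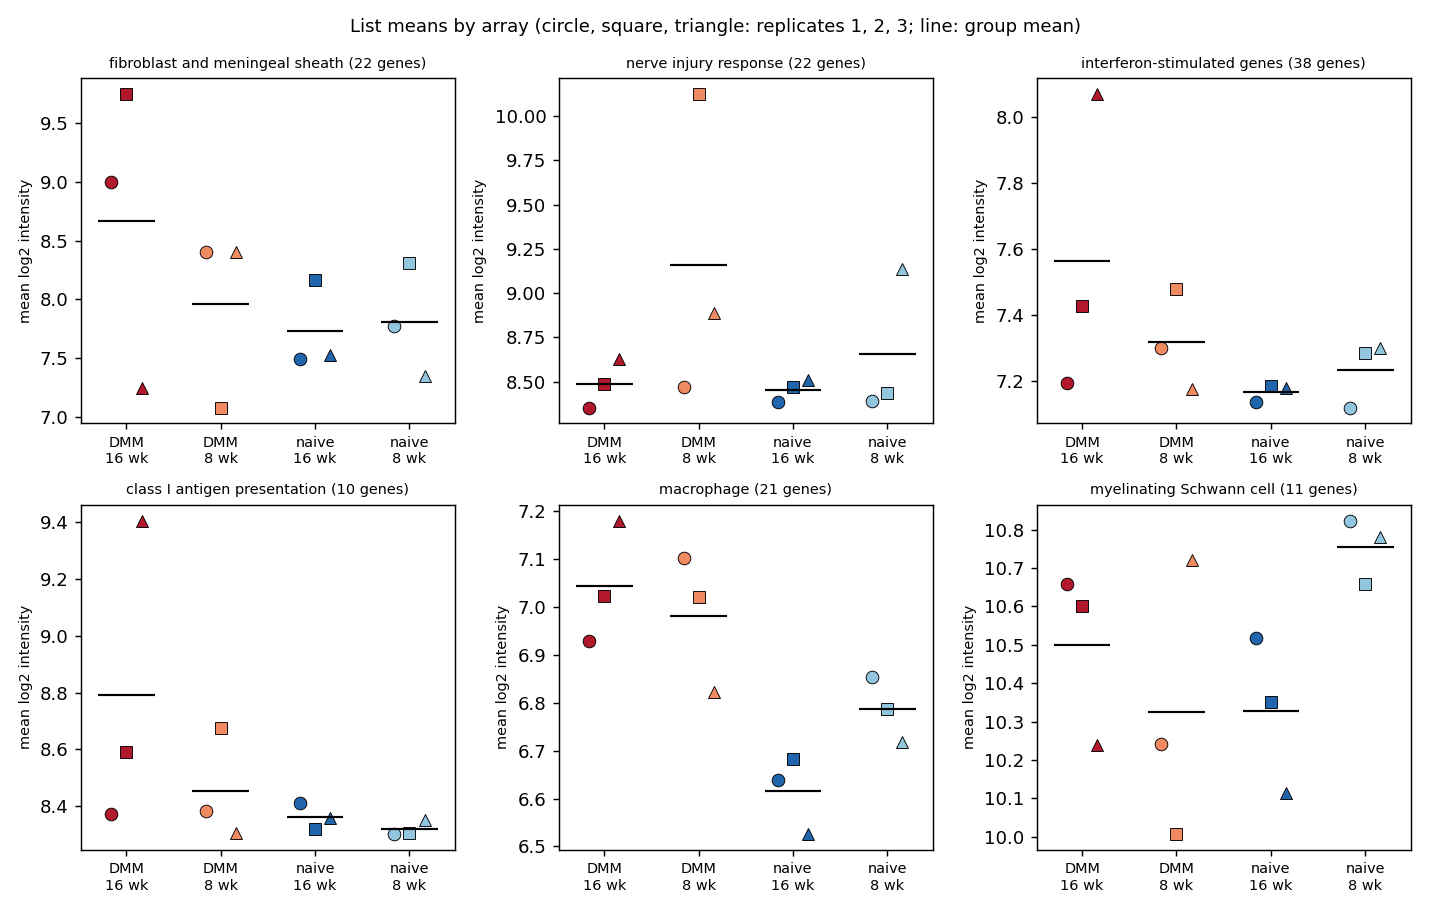
Mean log2 intensity of the genes of 6 lists in each array, with DMM at 16 and 8 weeks in reds and naive mice at 16 and 8 weeks in blues. Points are arrays, with 1 symbol per replicate, and lines are group means. The array that stands apart is DMM replicate 3 at 16 weeks for interferon-stimulated and class I genes, and DMM replicate 2 at 8 weeks for nerve injury genes.

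Macrophage genes split among themselves. Of 21 tested, 12 were higher and 9 lower at 16 weeks, with a median of 0.037. Of the 21, 4 were higher with groups that did not overlap, beside 7.31% of all genes tested. The median was -0.083 without replicate 3 at 16 weeks and -0.021 without replicate 3 at 8 weeks, and 0.15 without replicate 1 at 8 weeks. Csf1r, the receptor that keeps macrophages alive, read 7.48, 7.55 and 7.74 at 16 weeks, against 7.04, 7.28 and 7.35 at 8 weeks (difference 0.37 ± 0.11, adjusted p = 0.293). Lyz2, the macrophage lysozyme, read 11.56, 11.82 and 11.87 at 16 weeks, against 11.27, 10.97 and 11.05 at 8 weeks (0.65 ± 0.21, adjusted p = 0.318). Mrc1, the mannose receptor of tissue-resident macrophages, read 9.02, 8.99 and 9.04 at 16 weeks, against 8.30, 8.72 and 8.79 at 8 weeks (0.41 ± 0.14, adjusted p = 0.332). Cd163, the scavenger receptor for hemoglobin, differed by 0.25 ± 0.09 (adjusted p = 0.355).

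Other macrophage genes did not share this order. Adgre1, which encodes F4/80, read 6.60, 6.41 and 7.07 at 16 weeks, against 8.26, 6.54 and 6.49 at 8 weeks, and Aif1, which encodes IBA1, differed by -0.24 ± 0.10 (adjusted p = 0.372). The complement genes C1qa, C1qb and C1qc differed by 0.10, -0.027 and -0.077. The list mean ran from 6.93 to 7.18 at 16 weeks and from 6.82 to 7.10 at 8 weeks. In naive mice Csf1r, Lyz2 and Mrc1 pointed the other way, with differences of -0.22, -0.44 and -0.30. The test of the difference between DMM and naive changes gave 0.59 ± 0.15 for Csf1r and 1.09 ± 0.30 for Lyz2 (limma adjusted p = 0.214 and 0.275), which misses the threshold.

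Neutrophil genes were low and split in direction, with 5 of 9 tested higher at 16 weeks and 4 lower. Of the 9, 4 had a mean below the lowest control median, and the list median of 0.38 rests on few genes. Ngp, a neutrophil granule protein, read 5.95, 6.63 and 6.22 at 16 weeks, against 5.21, 4.83 and 5.59 at 8 weeks (1.06 ± 0.43, adjusted p = 0.382). S100a8 and S100a9, the subunits of calprotectin, differed by 0.999 and 0.95 with no overlap (adjusted p = 0.565 and 0.573). Ly6g, the surface marker of neutrophils, pointed the other way at -0.44 ± 0.18, with 5.29 in replicate 2 at 8 weeks and 4.26 to 4.49 in the other 5 arrays. Alas2, a heme enzyme of red cells, read 11.82 in replicate 1 at 8 weeks and 6.23 to 9.20 in the other 5 DMM arrays, so this red cell gene was uneven across arrays. The part of blood in the neutrophil values was not tested.

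Among chemokines and cytokines, 16 of 23 were higher at 16 weeks, with a median of 0.11, which was 0.042 without replicate 1 at 8 weeks. Ccl12, a monocyte attractant, read 6.07, 5.61 and 6.08 at 16 weeks, against 5.25, 5.55 and 5.55 at 8 weeks (0.47 ± 0.19, adjusted p = 0.387). Il33, an alarmin of stromal cells, read 6.75, 7.59 and 6.18 at 16 weeks, against 6.25, 5.76 and 6.49 at 8 weeks, highest in replicate 2 at 16 weeks. Ccl2, the main attractant of monocytes, read 6.28, 6.18 and 6.40 at 16 weeks, against 6.20, 7.10 and 6.21 at 8 weeks. Its receptor gene Ccr2 differed by 0.031, with an interval from -0.30 to 0.36. The innate receptor genes Tlr4 and Tlr5 differed by 0.13 and -0.012, with intervals from -0.14 to 0.40 and from -0.27 to 0.24.

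No gene of pain signalling passed, and the intervals leave room for moderate differences in both directions. Tac1, the precursor of substance P, read 11.47, 11.69 and 11.79 at 16 weeks, against 11.55, 11.84 and 11.56 at 8 weeks, a difference of -0.001 with an interval from -0.32 to 0.32. Trpv1, the capsaicin and heat receptor, differed by -0.040, from -0.59 to 0.51. Of 12 peptidergic nociceptor genes 5 were higher and 7 lower (median -0.014), and of 18 non-peptidergic and itch genes 9 were higher and 9 lower (median 0.0050). The touch and proprioceptive list had a median of -0.011 over 13 genes. Pain transmitters and their receptors had a median of -0.084 over 19 genes, and sensing channels of the TRP, acid and ATP families one of -0.014 over 17. The peptidergic, non-peptidergic, touch and sensing channel medians took either sign when 1 array was left out, between -0.16 and 0.14. Trpm3, a heat-sensing channel, read 10.14, 10.40 and 10.01 at 16 weeks, against 9.79, 9.94 and 10.00 at 8 weeks (0.28 ± 0.10, adjusted p = 0.354).

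Of 15 calcium channel subunits 11 were lower (median -0.13). Cacnb1, a beta subunit, read 8.83, 8.88 and 9.05 at 16 weeks, against 9.12, 9.36 and 9.10 at 8 weeks, with no overlap (-0.27 ± 0.08, adjusted p = 0.277). The list median was -0.017 without replicate 2 at 16 weeks. Of 21 sodium and potassium channels 16 were lower (median -0.049), and the median was -0.013 without replicate 2 at 16 weeks.

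Of 11 genes of myelinating Schwann cells 9 were higher (median 0.17). The list mean was 10.66, 10.60 and 10.24 at 16 weeks, against 10.24, 10.01 and 10.72 at 8 weeks, so the groups overlapped. Mbp, myelin basic protein, read 11.33, 11.28 and 10.95 at 16 weeks, against 10.85, 10.51 and 11.27 at 8 weeks (0.30 ± 0.17, adjusted p = 0.487). Replicate 2 at 8 weeks, the array high in nerve injury genes, was lowest for 9 of the 11, and the median was 0.033 without it. In naive mice the median was -0.31. Satellite glia genes had a median of 0.060 over 12 genes, and genes of non-myelinating and repair Schwann cells one of 0.015 over 9. Without replicate 2 at 16 weeks these were 0.010 and -0.020.

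No clock gene passed. Arntl, which encodes BMAL1, read 7.29, 7.17 and 6.86 at 16 weeks, against 6.95, 7.06 and 6.87 at 8 weeks (0.15 ± 0.12, adjusted p = 0.636). Dbp and Nr1d1, both driven by the clock, differed by 0.11 ± 0.22 and 0.12 ± 0.27, and both signs turned in some settings. Per3 had the smallest p of the list at 0.48 ± 0.17 (adjusted p = 0.349), with overlapping groups. Of 18 members 13 were higher, with a median of 0.096, and 1 had an unadjusted p under 0.05, beside 6.5% of all genes higher at that level. The median was 0.011 without replicate 2 at 16 weeks and 0.037 without replicate 2 at 8 weeks. Fabp7 read 17.74, 17.60 and 17.47 at 16 weeks, against 17.44, 17.57 and 17.52 at 8 weeks (0.092 ± 0.11, adjusted p = 0.761).

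Further lists had medians between -0.13 and 0.045, apart from RNA quality transcripts, given last. Red cell genes had one of -0.13 over 3 genes, adipocyte genes -0.035 over 2 and spinal cord genes 0.039 over 4. Immediate early genes had one of -0.11 over 17, growth factor feedback genes -0.11 over 11, T, B and NK cell genes -0.084 over 6, alarmin and pattern receptors 0.045 over 16, cell cycle genes -0.031 over 20 and glucocorticoid response genes -0.030 over 16. Cholesterol genes had a median of 0.025 over 15, complement genes -0.013 over 13 and chaperones with cold-inducible genes 0.012 over 11. Leaving out 1 array turned the sign for the red cell, adipocyte, alarmin, cell cycle, glucocorticoid, cholesterol, complement and chaperone lists. Among the glucocorticoid targets, the metallothionein Mt2 read 13.98, 14.54 and 14.22 at 16 weeks, against 14.68, 15.29 and 14.55 at 8 weeks, with no overlap (-0.60 ± 0.18, adjusted p = 0.305). Transcripts listed as signs of RNA quality and stress were higher in 11 of 13 cases (median 0.16, and 0.093 without replicate 2 at 16 weeks).

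The named genes of smallest p were taken whatever their function. All 20, 10 in each direction, had groups that did not overlap, which is where a small p comes from and is no separate support. Gstz1, an enzyme of tyrosine breakdown, read 10.48, 10.54 and 10.60 at 16 weeks, against 9.82, 10.14 and 10.05 at 8 weeks (0.54 ± 0.10, adjusted p = 0.223). It also differed by 0.39 in naive mice (adjusted p = 0.117). Rragb, a GTPase that signals amino acid supply to mTORC1, read 11.40, 11.68 and 11.71 at 16 weeks, against 11.22, 11.23 and 11.18 at 8 weeks, and differed by 0.39 in naive mice too. Lbr, the lamin B receptor of the nuclear envelope, read 8.76, 9.15 and 8.90 at 16 weeks, against 8.23, 8.58 and 8.45 at 8 weeks, and differed by 0.30 in naive mice.

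Of the other higher genes, Surf1, an assembly factor of cytochrome oxidase, differed by 0.36 ± 0.07 and Mff, which recruits the fission machinery to mitochondria, by 0.29 ± 0.07. Psma4, a proteasome subunit, differed by 0.31, Nsfl1c, a cofactor of the p97 ATPase, by 0.22, Chmp2a, a subunit of ESCRT-III, by 0.32, and Pebp1, an inhibitor of Raf signalling, by 0.22. Their adjusted p ran from 0.223 to 0.230. In naive mice Surf1, Mff and Chmp2a were also higher at 16 weeks without overlap, by 0.22, 0.18 and 0.19. Psma4, Nsfl1c and Pebp1 differed there by 0.045, 0.064 and -0.019.

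Of the 10 lower genes, 5 had a mean below the highest control median, so their differences lie where the array measures poorly. Ppy, the pancreatic polypeptide gene, read 4.54, 4.37 and 4.81 at 16 weeks, against 4.97, 4.94 and 5.03 at 8 weeks. The microRNA gene Mir466o was clearly above control, with 9.58, 9.16 and 9.55 at 16 weeks, against 10.33, 10.42 and 10.20 at 8 weeks (-0.89 ± 0.19, adjusted p = 0.230). Ccne2, cyclin E2, read 6.32, 6.25 and 6.33 at 16 weeks, against 6.71, 6.77 and 6.52 at 8 weeks. Smpd1, the lysosomal acid sphingomyelinase, read 10.33, 10.27 and 10.17 at 16 weeks, against 10.53, 10.70 and 10.48 at 8 weeks (-0.32 ± 0.08, adjusted p = 0.250). Ccr7, a receptor that guides dendritic and T cells to lymph nodes, differed by -0.56 ± 0.14. The other 5 were Sapcd1 (-0.25), Csn1s2a (-0.52), Defb2 (-0.58), Sp6 (-0.32) and Fut4 (-0.45). In naive mice Ppy, Sapcd1 and Mir466o also differed without overlap, by -0.25, -0.13 and -0.088. Ccr7, Defb2 and Ccne2 differed there by -0.14, -0.078 and -0.010. Csn1s2a, Smpd1, Fut4 and Sp6 went the other way in naive mice, by 0.12, 0.022, 0.016 and 0.013. Level and direction were related over all genes, since 24.52% of genes with a mean up to 5 were higher at 16 weeks and 60.07% of those between 6 and 8.

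**Figure D4:**
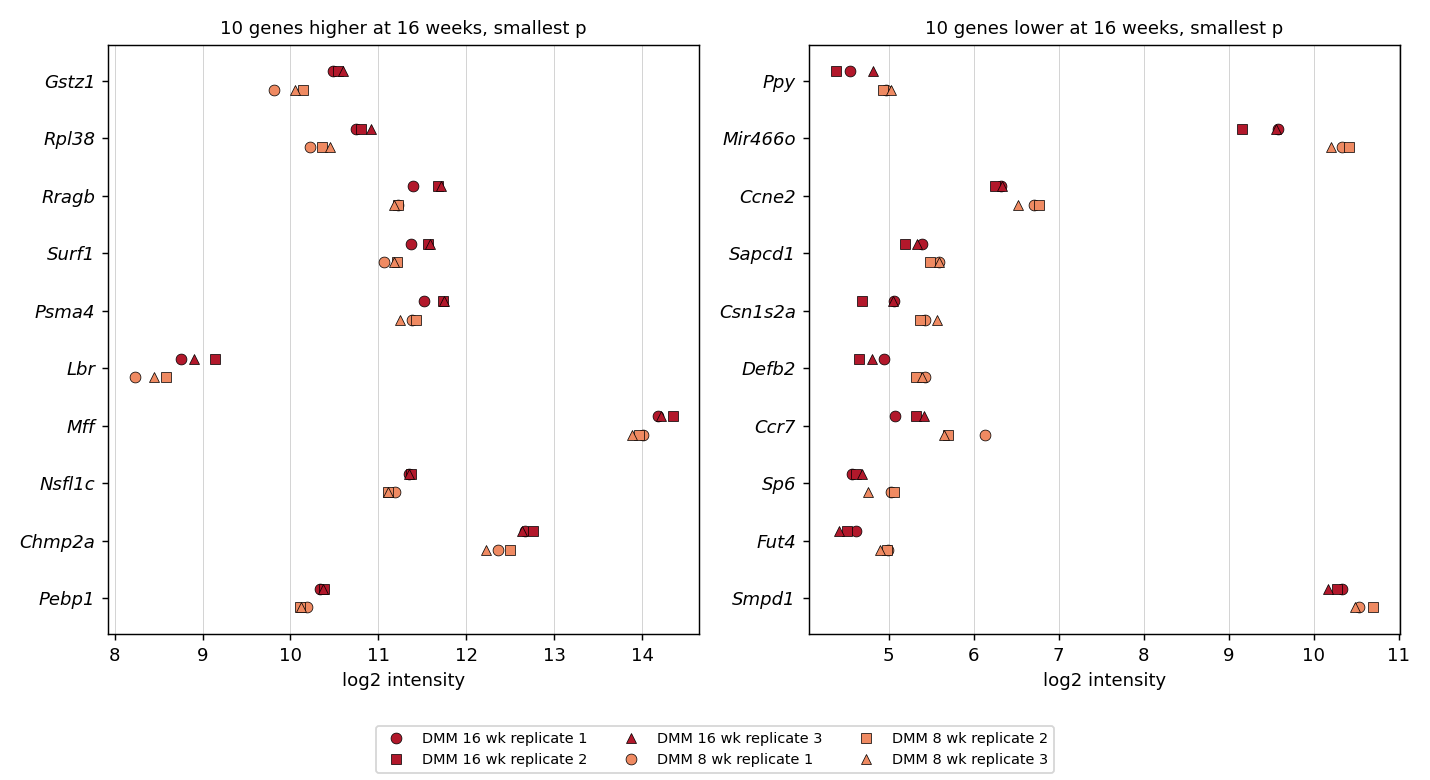
Log2 intensity of the 10 named genes of smallest p that were higher at 16 weeks (left) and the 10 that were lower (right), in each DMM array, with 16 weeks drawn above 8 weeks for each gene. No gene's groups overlap, and most of the lower genes read between 4 and 7, near the control medians of 5.06 to 5.35.

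Most listed ribosomal protein and mitochondrial genes read slightly higher at 16 weeks in DMM mice. In naive mice the medians of these 2 lists were -0.0985 and -0.082. The ribosomal protein list has 30 entries, of which 13 were on the array under 1 symbol. Of 13 cytosolic ribosomal protein genes 12 were higher at 16 weeks, with a median of 0.11, and the list mean was 9.79, 9.89 and 9.80 at 16 weeks, against 9.73, 9.70 and 9.69 at 8 weeks. Rpl4 read 16.34, 16.42 and 16.39 at 16 weeks, against 16.12, 16.18 and 16.14 at 8 weeks (0.23 ± 0.06, adjusted p = 0.230). Rpl8 differed by 0.37 ± 0.09 (adjusted p = 0.230), and Rpl38, which the rule named apart from the list, by 0.48 ± 0.09 (adjusted p = 0.223). Of 28 genes of oxidative phosphorylation 23 were higher, with a median of 0.057. Of the 28, 5 were higher without overlap, beside 7.31% of all genes tested. The median was 0.031 without replicate 2 at 8 weeks. Ndufs1, the largest subunit of complex I, read 11.47, 11.55 and 11.37 at 16 weeks, against 11.25, 11.13 and 11.30 at 8 weeks (0.24 ± 0.06, adjusted p = 0.230). Uqcrc2 of complex III differed by 0.21 ± 0.07, while Uqcrc1 of the same complex differed by -0.20 ± 0.09.

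Pseudogenes of ribosomal proteins, processed copies that share sequence with their parent genes, leaned the same way. Of 193 tested, 172 were higher at 16 weeks, with a median of 0.16, and 57 had an unadjusted p under 0.05 (29.53%). Over all genes 52% were higher, and 6.5% higher with such a p. Their mean was 10.72, 10.78 and 10.73 at 16 weeks, against 10.63, 10.54 and 10.56 at 8 weeks. Probes for such copies may read the parent transcript or each other, and the 193 genes hold 188 distinct rows of values, so they are not independent measurements. Rpl38-ps1 and Rpl38-ps2, picked after their values were seen, differed by 0.79 ± 0.16 and 0.69 ± 0.15, beside 0.48 for Rpl38. In naive mice the direction was opposite, with a median of -0.16 and means of 10.60, 10.65 and 10.64 at 16 weeks, against 10.86, 10.84 and 10.64 at 8 weeks.

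Most small nuclear RNAs read lower at 16 weeks in both DMM and naive mice. Of 689 such genes 609 were lower at 16 weeks in DMM mice, beside 48% of all genes. The median was -0.23, and the naive median was -0.35. The 689 genes hold 617 distinct rows of values, so they are not independent measurements. Their mean was 9.04, 8.65 and 8.80 in DMM mice at 16 weeks, against 9.21, 8.91 and 9.09 at 8 weeks, so the groups overlapped. Replicate 1 at 8 weeks held the highest value for 56.6% of them and replicate 2 at 16 weeks the lowest for 53.7%. The shares over all genes were 16.7% and 20.5%. The median was -0.16 when either of these arrays alone was left out. Small nucleolar RNAs had a median of -0.078 in DMM and -0.22 in naive mice over 626 genes, which hold 530 distinct rows of values. The DMM value was -0.020 without replicate 2 at 16 weeks and -0.031 without replicate 1 at 8 weeks. Snord13, picked for its size, read 12.17, 12.40 and 12.99 at 16 weeks, against 9.16, 11.40 and 9.68 at 8 weeks (2.44 ± 0.96, adjusted p = 0.374), opposite to its class. In naive mice Snord13 was also higher at 16 weeks, by 1.67, with uneven values of 14.24, 9.30 and 9.65 at 8 weeks. The difference between its DMM and naive changes was 0.77 ± 1.36 (limma adjusted p = 0.899).

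The change from 8 to 16 weeks was then compared between DMM and naive mice. In naive mice alone 4 genes passed, all lower at 16 weeks (0.0197%), and 0 were higher. They were the small nucleolar RNA Snord42a, which fell by 1.34 on the log2 scale, and the pseudogenes Gm2389, Gm15216 and Gm12481, which fell by 0.85, 0.49 and 0.40 (adjusted p = 0.0234, 0.0164, 0.0234 and 0.0234). The difference between the changes passed for 10 genes (0.0494%), each with the DMM change above the naive change, and for 0 in the other direction. All 10 are annotated as pseudogenes, and 5 are copies of Rpl35a.

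Rpl35a-ps5 read 9.80, 9.86 and 9.68 in DMM mice at 16 weeks, against 9.48, 9.02 and 9.40 at 8 weeks. In naive mice it read 9.40, 9.26 and 9.46 at 16 weeks, against 9.99, 9.93 and 9.85 at 8 weeks. The DMM difference was 0.48, the naive difference -0.55 and the difference between them 1.03 ± 0.15 (adjusted p = 0.0156). Rpl35a-ps2 gave 0.94 ± 0.14 (adjusted p = 0.0156). Rpl35a-ps3, Rpl35a-ps4 and Rpl35a-ps6 had identical values on all 25 arrays and count as 1 measurement, at 0.82 ± 0.13 (adjusted p = 0.0156). For these copies all DMM arrays at 8 weeks lay below all naive arrays at 8 weeks, while DMM at 16 weeks lay above naive at 16 weeks. Gm4963, which had the smallest p in DMM mice, read 11.06, 11.10 and 11.07 at 16 weeks, against 10.67, 10.67 and 10.62 at 8 weeks (0.42 ± 0.07, adjusted p = 0.223).

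**Figure D5:**
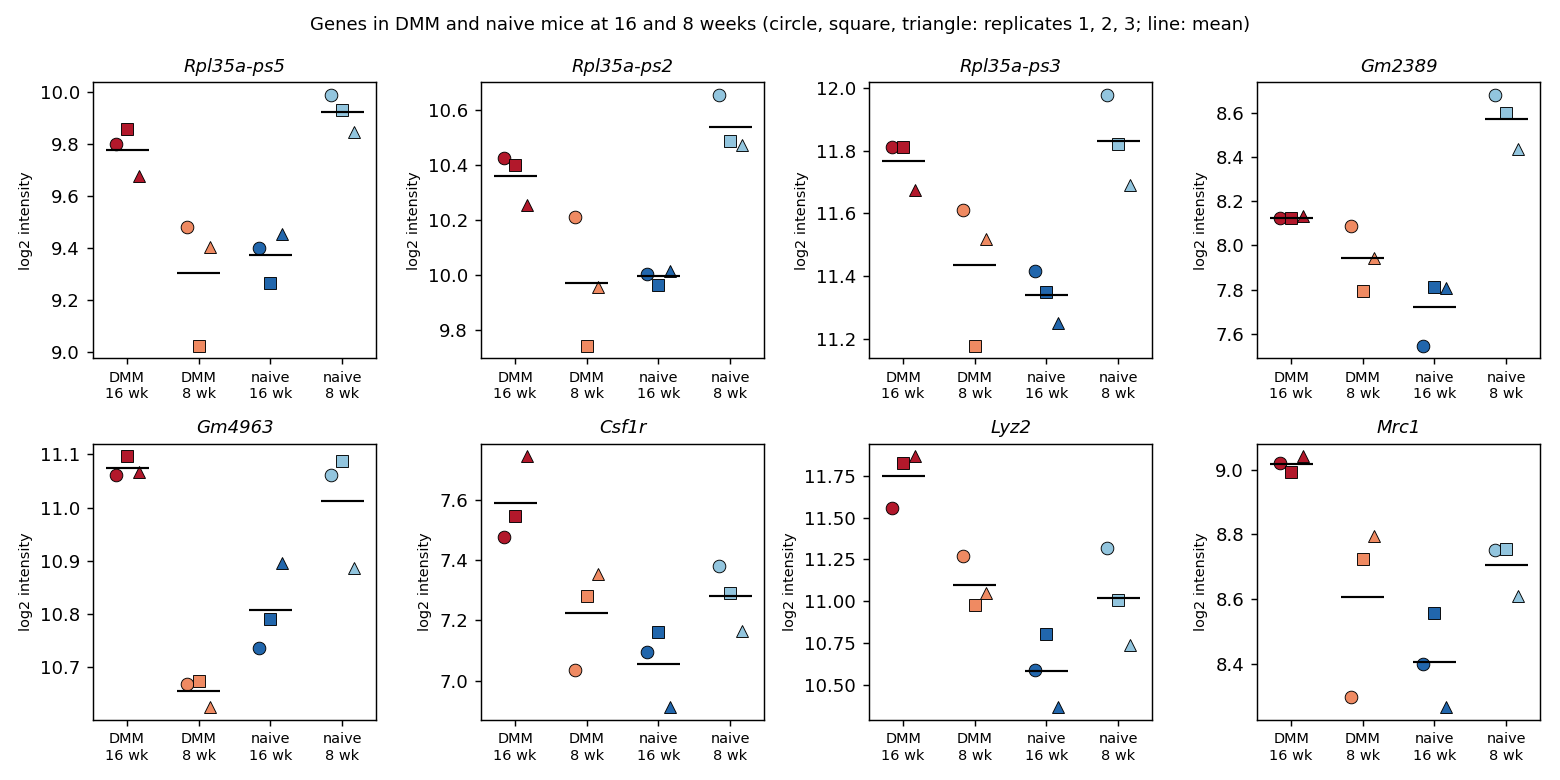
Log2 intensity of 8 genes in DMM mice at 16 and 8 weeks and naive mice at 16 and 8 weeks (points, 1 symbol per replicate, lines at group means). The 5 pseudogenes passed the test of the difference between the changes. In Csf1r, Lyz2 and Mrc1 the mean is higher at 16 weeks in DMM and lower at 16 weeks in naive mice, and the test was missed, with adjusted p of 0.214, 0.275 and 0.277.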

How the data were processed

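Gene expression in 25 dorsal root ganglion samples was measured on a biotin-labelled Affymetrix microarray. For each probe set the authors deposited a value whose log2 scale was inferred from its range, since no label states it. Their background correction, normalization and software are likewise not stated. Of 65956 transcript probe sets, 30604 carried 1 symbol in the platform annotation, 2146 several and 33206 none. Only those with 1 symbol were used, 827 symbols were updated by Entrez identifier, and of several probe sets of a gene (355 genes) the brightest was kept. Genes with a mean above the 40th percentile of transcript probe sets (4.52) were tested. limma 3.58.1 (R 4.3.3) was fitted with 1 mean per group over all 25 arrays (16 residual degrees of freedom), two-sided, with Benjamini-Hochberg adjustment over 20260 genes and a threshold of 0.05. The 3 contrasts were DMM at 16 minus 8 weeks, naive at 16 minus 8 weeks, and their difference. Errors of differences are standard errors, and intervals cover 95%.

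The comparison, the 39 gene lists (743 entries, 655 on the array, 582 tested) and the rule for naming genes were chosen with earlier results of these data known. The rule takes genes past the threshold, filled up to 10 per direction with named genes of smallest p, up to 4 members of a list described, and 18 genes of clock, macrophage, injury and pain signalling, of which Calca was not measured under 1 symbol. Others are named where the text says so or as members of a list. Lists are described by counts and medians and were not tested as sets. Replicate numbers were not treated as pairs. The alternatives were no filter and a stricter filter (60th percentile), the mean of a gene's probe sets, quantile and cyclic loess normalization, array weights, a trended and robust prior, only the arrays compared, the replicate block, and leaving out each array. The procedure was tested on simulated data. Promoter sequences are from RefSeq, and promoter matching used gene symbols.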

Additional observations from a re-analysis of the deposited data

Results flagged for a closer look

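The change from 8 to 16 weeks differed between DMM and naive mice by the test of the difference itself for 10 pseudogenes. The difference, DMM change minus naive change, was 1.03 for Gm2389, 1.03 for Rpl35a-ps5, 0.94 for Rpl35a-ps2, 0.82 for the identical values of Rpl35a-ps3, Rpl35a-ps4 and Rpl35a-ps6, 0.79 for Gm15727, 0.65 for Gm14541, 0.62 for Gm4963 and 0.52 for Gm12481 (limma adjusted p from 0.0156 to 0.0479). In Gm2389 and Gm12481 most of it lay in the naive mice, which differed by -0.85 and -0.40, beside 0.18 and 0.12 in DMM mice. The naive difference was also the larger in size for each Rpl35a copy, Gm14541 and Gm15727. For Gm14541 and Gm15727 it was -0.41 and -0.44, beside 0.24 and 0.36 in DMM mice. In Gm4963 the DMM difference was the larger, at 0.42 beside -0.20 in naive mice. The count of such genes was 0 without DMM replicate 1 at 16 weeks, without naive replicate 1 at 8 weeks or without naive replicate 2 at 8 weeks, and 61 without naive replicate 3 at 8 weeks.

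Csf1r was set apart because every DMM array at 16 weeks lay above every one at 8 weeks while every naive array at 16 weeks lay below every one at 8 weeks. The naive order was nearly tied, with a highest value of 7.1623 at 16 weeks and a lowest of 7.1645 at 8 weeks. Of all genes tested, 7.31% were higher at 16 weeks without overlap in DMM mice. For Csf1r the difference between the changes was 0.59 ± 0.15, and the limma adjusted p of 0.214 misses the threshold.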

How the results depend on the processing

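For DMM at 16 against 8 weeks the count of genes past the threshold was 0, and it was 1 (lower) with no filter and 0 to 200 when 1 array was left out, 200 being without DMM replicate 3 at 16 weeks. The other 8 alternatives, each fitted on all 6 arrays, also gave 0. For naive mice, where 4 passed, it was 207 with array weights, 107 with the replicate block, 12 with the stricter filter, 7 after quantile normalization, 2 after cyclic loess and 0 with only the arrays compared. Leaving out 1 naive array gave 0 to 150, with 115 without replicate 3 at 16 weeks and 150 without replicate 3 at 8 weeks. For the difference between the changes, where 10 passed, it was 6 with the replicate block, 4 after quantile normalization, 0 with only the arrays compared and 0 to 61 without 1 array. The causes were not tested. Of 114 genes followed in the DMM comparison, 104 kept their sign under every alternative. Signs turned for the other 10. Without 1 array Dbp ran from -0.17 to 0.31 and Nr1d1 from -0.28 to 0.45, both lowest without replicate 2 at 8 weeks. Without replicate 2 at 16 weeks they were -0.047 and -0.042, and with array weights -0.0020 and -0.13. Highest without replicate 2 at 8 weeks were Gal (-1.34 to 0.0004), Tac1 (-0.070 to 0.095), Ccl2 (-0.37 to 0.082), Ccr2 (-0.070 to 0.17), Ppbp (-2.20 to 0.093) and Igkv6-14 (-1.98 to 0.26). Trpv1 ran from -0.19 to 0.12 and was 0.090 without replicate 2 at 8 weeks. Tlr5 ran from -0.10 to 0.15, with 0.054 without replicate 1 at 16 weeks, where Tac1 was 0.087. Ccr2 was -0.0074 without replicate 3 at 8 weeks. Same-numbered DMM arrays at the 2 times had deviations correlated at 0.094, -0.26 and -0.34, and naive arrays at 0.13, 0.23 and 0.043. So few values cannot settle whether the numbers pair the samples. The replicate block left the DMM count at 0 and raised the naive count to 107. Genes near the control level are the least well measured.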
